A study of Mus musculus with 2 samples.

Results

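Chondrocyte transcription factors and cartilage matrix genes were read in cultured Nestin+ mesenchymal stromal cells from the heart and from the bone marrow. The set held 10 genes of 49583 in the deposited tables, taken by name, with collagens left out, and all 10 had a row in both tables. Nestin is an intermediate filament protein of stem and progenitor cells, and the C57BL/6 mice, 7 days old, carried a Nestin-GFP reporter transgene. The heart cells were grown in a mixture of DMEM/F12 and IMDM with N2 and B27 supplements, 20 ng/ml of EGF, 20 ng/ml of bFGF and 4 ng/ml of cardiotrophin-1. The bone marrow cells had a different, earlier published medium, which leaves tissue and culture conditions confounded. Both cultures were at passage 10 and each gave 1 library, so no difference given here has a replicate check and no p-value was computed. The number of animals behind each culture is not given in the labels.

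Cartilage is made by chondrocytes, which SOX9 specifies and which SOX5 and SOX6, acting beside SOX9, drive to make their matrix. That matrix holds aggrecan (Acan), a large proteoglycan tied to hyaluronan by link protein (Hapln1). Matrilins (Matn1, Matn2, Matn3) are adaptor proteins that join collagen fibrils and proteoglycans, chondroadherin (Chad) is a leucine-rich repeat protein that binds chondrocytes, and lubricin (Prg4) coats joint surfaces. Matn1 and Matn3 are known as cartilage genes, whereas Matn2 is made in many connective tissues and around nerves. Sox9 is also active in other progenitor cells, the heart valves among them.

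Sox9, the main regulator, was read at the same level in both cultures, and the matrix genes of the set differed or were near 0. Sox9 stood at 7.13 RPKM in heart and 7.12 RPKM in bone marrow, where RPKM is the read number divided by gene model length and by library size. Matn2 was the most abundant of the 10 genes in both libraries and higher in heart, at 76.9 RPKM against 13.4 RPKM in bone marrow. Prg4 and Matn3 were lower in heart, and Acan, Matn1 and Chad were near 0 in both. Of the 10 genes, 6 were below 1 RPKM in both libraries.

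Promoter sequences are shown for 3 matrix genes, to set Matn3, which was read in bone marrow, beside Matn1 and Acan, which had at most 3 reads in either library. Each line gives the 250 bases before the RefSeq start of the gene on the plus strand, 5′ to 3′, from RefSeq on GRCm38.p6. Capitals mark the GC box letters GGGCGG or their reverse complement CCGCCC. The windows are chr12:8947679-8947928 for Matn3, chr4:130944135-130944384 for Matn1 and chr7:79052976-79053225 for Acan. The RefSeq start is the start in the deposited tables for Matn3 and Matn1, whereas the Acan window ends 257 bases short of the start that the tables give.
Matn3: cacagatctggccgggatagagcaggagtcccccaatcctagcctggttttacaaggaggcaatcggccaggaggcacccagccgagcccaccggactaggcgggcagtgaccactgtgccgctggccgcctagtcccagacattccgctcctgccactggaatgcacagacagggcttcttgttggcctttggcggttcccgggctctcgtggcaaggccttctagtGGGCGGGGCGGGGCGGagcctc
Matn1: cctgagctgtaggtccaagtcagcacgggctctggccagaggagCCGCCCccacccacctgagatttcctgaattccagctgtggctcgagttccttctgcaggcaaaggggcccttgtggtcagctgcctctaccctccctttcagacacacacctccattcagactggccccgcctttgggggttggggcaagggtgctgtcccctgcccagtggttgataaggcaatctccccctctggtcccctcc
Acan: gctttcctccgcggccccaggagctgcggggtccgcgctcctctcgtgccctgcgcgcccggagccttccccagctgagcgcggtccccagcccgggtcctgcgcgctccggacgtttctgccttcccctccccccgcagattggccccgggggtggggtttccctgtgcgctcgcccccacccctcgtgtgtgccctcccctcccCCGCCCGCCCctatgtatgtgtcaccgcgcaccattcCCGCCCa

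The Matn3 window held 3 matches to the GC box that overlap each other and lie next to the start, the Acan window 3 and the Matn1 window 1. A GC box was found in 32.7% of the 32851 promoter windows of the same length. CG dinucleotides numbered 14 in the Matn3 window, 4 in the Matn1 window and 26 in the Acan window, against a median of 6 over all windows. The SOX core letters ACAAAG as well as ACAATG and also AACAAT were searched on both strands, and the last 2 of these can overlap each other. No match lay in the windows of Matn3, Matn1, Acan, Chad or Hapln1, and 29.6% of all windows held at least 1 match. All 250 bases of the Hapln1 window are marked as exon in the GENCODE M21 annotation. The Sox5 window held 1 match, and 5 of 6 Sox6 windows held at least 1, all of them within or across the edge of the gene spans in the tables. Of the 10 genes, 7 were in the promoter table. Sox9, Matn2 and Prg4 were the others. These matches describe letters and are not binding sites.

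The recovered totals were 64872683 reads for heart and 53999963 reads for bone marrow. Stromal markers (10 genes) summed to 3841 RPKM in heart and 4237 RPKM in bone marrow. Col1a1, Col1a2 and Vim made up most of both sums, with Col1a1 alone at 1751 RPKM in heart and 1777 RPKM in bone marrow. The list was not alike in both: its counting intervals lay beyond 2-fold toward heart for 3 genes, Pdgfra, Thy1 and Eng, and toward bone marrow for 1, Nt5e. Over all 20862 genes with recovered reads the shares were 7.94% toward heart and 8.48% toward bone marrow. Thy1 stood at 16.7 RPKM in heart and 0.0603 RPKM in bone marrow, Eng at 33.9 RPKM in heart and 0.576 RPKM in bone marrow, and Nt5e at 0.225 RPKM in heart and 1.59 RPKM in bone marrow. Haematopoietic markers (7 genes) summed to 6.42 RPKM in heart and 2.51 RPKM in bone marrow. Cd53 made up most of the heart sum but not of the bone marrow sum, at 4.80 RPKM in heart and 1.03 RPKM in bone marrow. Lyz2 stood at 1.08 RPKM in heart and 1.05 RPKM in bone marrow, and the defining gene Ptprc was listed at 0 in heart and at 0.00469 RPKM in bone marrow. Endothelial markers (7 genes) summed to 0.961 RPKM in heart and 1.38 RPKM in bone marrow. Their counting intervals lay beyond 2-fold toward heart for 1 gene, Emcn, and toward bone marrow for 2, Vwf and Kdr, against the same shares of 7.94% and 8.48%. Emcn stood at 0.690 RPKM in heart and 0.0137 RPKM in bone marrow, and Vwf at 0.00768 RPKM in heart and 1.13 RPKM in bone marrow. Cardiomyocyte markers (8 genes) summed to 0.810 RPKM in heart and 0.917 RPKM in bone marrow. Schwann and glial markers (7 genes) summed to 0.989 RPKM in heart and 0.911 RPKM in bone marrow, and epithelial markers (5 genes) to 0.118 RPKM in heart and 2.12 RPKM in bone marrow. Epithelial counting intervals lay beyond 2-fold toward bone marrow for 2 genes and toward heart for none. The 2 made up most of the bone marrow sum: Krt14, at 0 in heart and 1.22 RPKM in bone marrow, and Cdh1, at 0.00337 RPKM in heart and 0.623 RPKM in bone marrow. The part of such cells in the values below was not tested. In bulk RNA, fewer cells of a type and less RNA per cell cannot be told apart. Over 6049 genes with 5 RPKM or more in each library the median log2 ratio of heart over bone marrow was -0.14, so a gene that stayed at the typical ratio is slightly lower in heart.

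**Figure D1:**
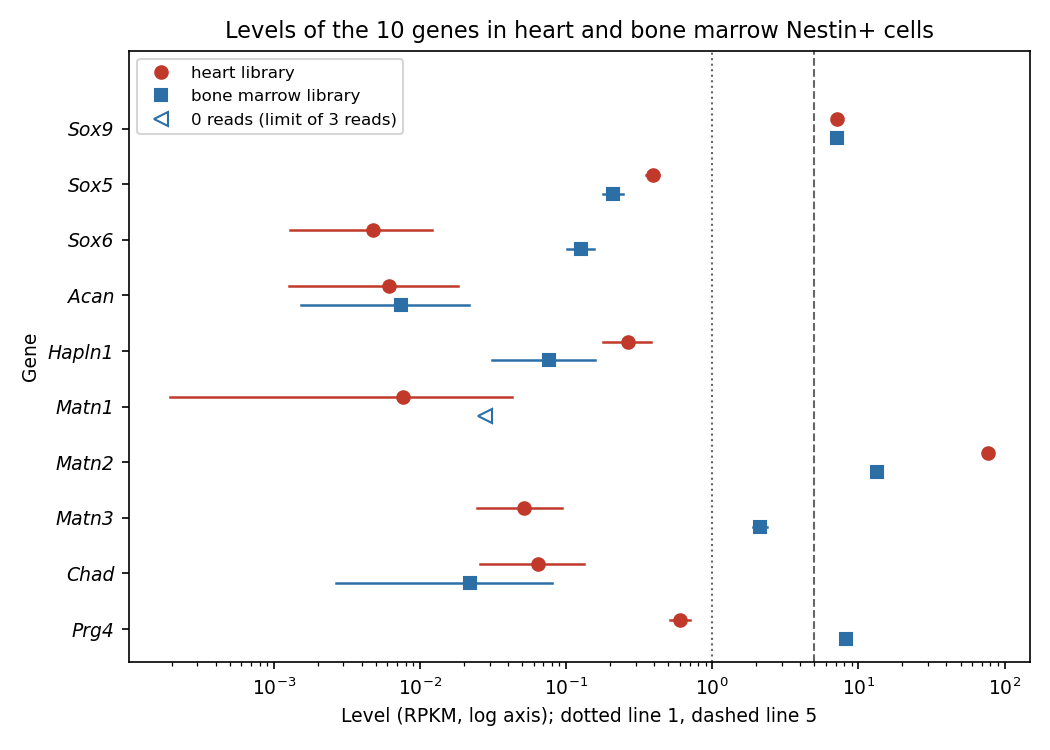
Level of each of the 10 genes in RPKM on a log axis, with heart as circles above and bone marrow as squares below. Horizontal lines are exact Poisson 95% intervals that cover counting error only, and the open triangle marks the limit of 3 reads for Matn1 in bone marrow, where no read was found. Sox9 coincides at 7.13 RPKM in heart and 7.12 RPKM in bone marrow, Matn2 lies farthest right, and Prg4, Matn3 and Sox6 lie farther left in heart.

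Among the transcription factors, Sox9 (chromosome 11, 112782224 to 112787760, plus strand, GRCm38) had 1913 reads in heart and 1589 reads in bone marrow. Heart over bone marrow gave a ratio of 1.00, and its 95% counting interval ran from 0.937 to 1.07. Sox9 ranked 5529th of 19499 genes above 0 in heart and 5718th of 19048 in bone marrow. Its level was therefore moderate and alike in both cultures, and no other gene overlaps its locus.

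Sox5 (chromosome 6, 143828425 to 144781977, minus strand) encodes a SOX factor without a transactivation domain that assists SOX9. It stood at 0.392 RPKM in heart, from 366 reads, and 0.209 RPKM in bone marrow, from 162 reads. The ratio was 1.88, with an interval of 1.56 to 2.28. Sox5 was low in both libraries and higher in heart, by a ratio whose interval spans 2-fold.

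Sox6 (chromosome 7, 115470872 to 116038796, minus strand), the close partner of Sox5, went the other way. It stood at 0.00476 RPKM in heart and 0.127 RPKM in bone marrow, from at least 4 reads in heart and at least 89 reads in bone marrow. The ratio was 0.0374, with an interval of 0.00997 to 0.0992, so Sox6 was 26.7-fold lower in heart. Sox5 and Sox6 were within 1.64-fold of each other in bone marrow, whereas in heart the Sox5 level was 82.5 times that of Sox6. That multiple is imprecise. On the lowest number of 4 reads, the Poisson interval of Sox6 in heart ran from 0.0013 to 0.0122 RPKM. In both libraries Sox9 was well above its partners: it was 18.2 times Sox5 in heart and 34.1 times Sox5 in bone marrow.

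The other SOX factors give the setting for these levels. Of 16 further family members found, 13 were below 1 RPKM in both libraries, 1 met the 2-fold rule toward heart and none toward bone marrow. Their median log2 ratio was -0.0035, a value held near 0 by the genes below 1 RPKM. The 2-fold rule asks for a log2((heart + 1)/(bone marrow + 1)) of at least 1 in size and at least 5 RPKM in the higher library. Only 1 of the 16 reached 5 RPKM. Over all 7659 genes that did, 7.56% met the rule toward heart and 9.51% toward bone marrow. Sox4, a factor of progenitor cells, was the gene that met it, at 49.6 RPKM in heart and 18.4 RPKM in bone marrow. Sox8, a near relative of Sox9, had 0 reads in heart and 98 reads in bone marrow, which makes it at least 39.2-fold lower in heart when heart is set to 3 reads. Sox10, the remaining relative of Sox9 and a neural crest factor, was listed at 0 in heart and stood at 0.00683 RPKM in bone marrow. Sox13, the relative of Sox5 and Sox6, stood at 0.154 RPKM in heart and 0.215 RPKM in bone marrow, with a ratio interval of 0.465 to 1.10. Sox11 stood at 0.0111 RPKM in heart and 1.90 RPKM in bone marrow.

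Aggrecan and link protein, the core of the cartilage proteoglycan, were scarce in both cultures. Acan (chromosome 7, 79053483 to 79115099, plus strand) had 3 reads in heart and 3 reads in bone marrow, or 0.00619 RPKM in heart and 0.00744 RPKM in bone marrow. Both are at the limit of 3 reads that a count of 0 allows, so no ratio is given and a difference was not detectable at this depth. Hapln1 (chromosome 13, 89540636 to 89611832, plus strand) was read at 0.265 RPKM in heart and 0.0769 RPKM in bone marrow. Its reads were whole multiples of 29 in heart and 7 in bone marrow. They gave a ratio of 3.45, with an interval of 1.48 to 9.33 on those lowest numbers. Hapln1 was thus higher in heart, but by an interval that includes 2-fold.

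Among relatives of these proteoglycan genes, the aggrecan relative Vcan was abundant. Of 8 relatives of the aggrecan, link protein, matrilin and chondroadherin genes, 6 were below 1 RPKM in both libraries, 1 met the 2-fold rule toward heart and none toward bone marrow. Only 1 of the 8 reached 5 RPKM, and over all 7659 such genes the shares were 7.56% toward heart and 9.51% toward bone marrow. The median log2 ratio of the 8 was 0.01, a value held near 0 by the genes below 1 RPKM. Vcan, which encodes versican, the aggrecan relative of soft connective tissue, stood at 103 RPKM in heart and 10.9 RPKM in bone marrow, from 96184 reads in heart and 8504 reads in bone marrow. Its ratio was 9.41, with an interval of 9.21 to 9.63. Hapln2, a brain link protein gene, had 2 reads in heart and 0 reads in bone marrow. Hapln4, another brain link protein gene, stood at 1.87 RPKM in heart and 4.38 RPKM in bone marrow. Bcan, which encodes the brain proteoglycan brevican, stood at 0.00759 RPKM in heart and 0.501 RPKM in bone marrow.

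The matrilin genes went in different directions. Matn2 (chromosome 15, 34306680 to 34436242, plus strand) reached 76.9 RPKM in heart and 13.4 RPKM in bone marrow. Its reads were whole multiples of 17863 in heart and 2587 in bone marrow. They gave a ratio of 5.75, with an interval of 5.52 to 5.99. Its log2 ratio of 2.44 met the 2-fold rule, as did 7.56% of 7659 genes with 5 RPKM or more in either library. Matn2 ranked 459th among the genes of the heart library and 3559th among those of the bone marrow library.

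Matn3 (chromosome 12, 8947929 to 8972028, plus strand) was read at 0.0511 RPKM in heart, from 10 reads, and 2.13 RPKM in bone marrow, from 347 reads. The ratio was 0.0240, with an interval of 0.0114 to 0.0446, so Matn3 was 41.7-fold lower in heart. Its log2 ratio of -1.58 passed 2-fold, but the gene stayed under the floor of 5 RPKM. Matn1 (chromosome 4, 130944385 to 130955475, plus strand) had 1 read in heart and 0 reads in bone marrow, which allows up to 0.0278 RPKM there. No ratio is given for it. Matn4, the remaining matrilin gene, stood at 0.122 RPKM in heart and 0.118 RPKM in bone marrow, with a ratio interval of 0.638 to 1.69.

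**Figure D2:**
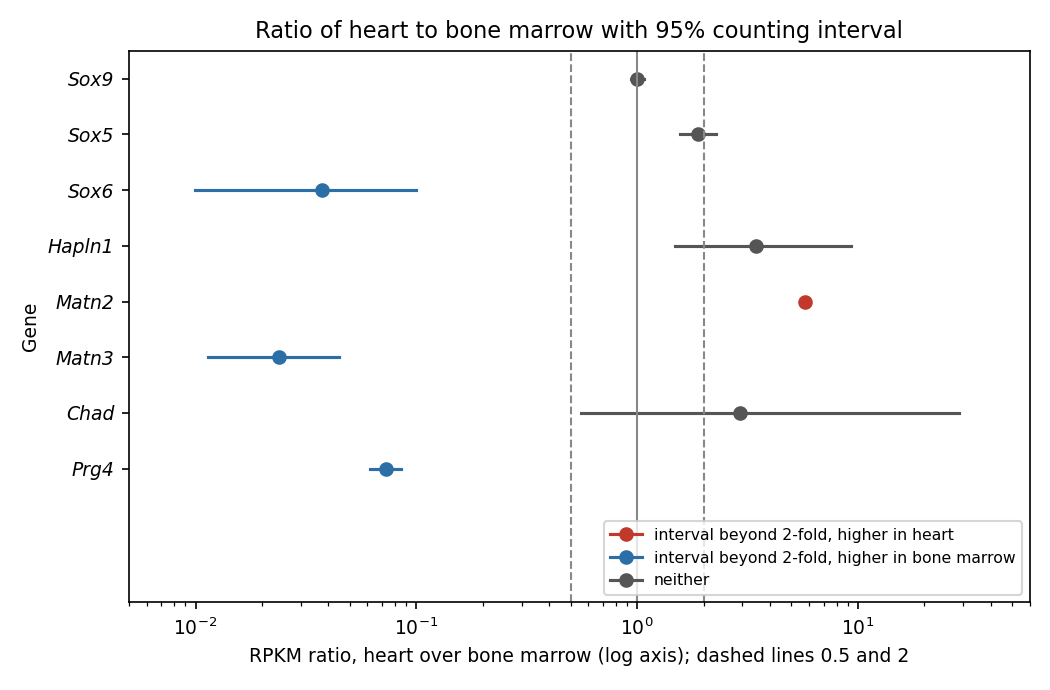
RPKM ratio of heart over bone marrow on a log axis for 8 genes, with exact 95% counting intervals as lines. Acan and Matn1 are left out because both libraries hold at most 3 reads. The Matn2 interval of 5.52 to 5.99 lies right of 2, those of Sox6, Matn3 and Prg4 lie left of 0.5, and the Sox9 interval sits on 1.

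Prg4 (chromosome 1, 150449412 to 150466165, minus strand), the lubricin gene, stood at 0.601 RPKM in heart, from 167 reads, and 8.24 RPKM in bone marrow, from 1904 reads. The ratio was 0.0730, with an interval of 0.0620 to 0.0856, so Prg4 was 13.7-fold lower in heart. Its log2 ratio of -2.53 met the 2-fold rule toward bone marrow, as did 9.51% of the same 7659 genes. The end of Prg4 shares 204 exon bases with Tpr, a nuclear pore gene on the other strand, which stood at 18.9 RPKM in heart and 30.1 RPKM in bone marrow. At the mean level of Tpr those bases would hold 250.3 reads in heart and 332 reads in bone marrow. The heart value of Prg4 is below that number, so it cannot be told apart from reads of Tpr, whereas 1572 of the bone marrow reads exceed it and would give 6.80 RPKM. How the authors counted such shared reads is not given in the sources used here.

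Chad (chromosome 11, 94565047 to 94569127, plus strand) was read at 0.0642 RPKM in heart, from 7 reads, and 0.0220 RPKM in bone marrow, from 2 reads. The ratio was 2.91, with an interval of 0.555 to 28.7, which includes 1, so a difference was not detectable at this depth. Chad lies inside Acsf2, a gene on the other strand at 5.65 RPKM in heart and 3.85 RPKM in bone marrow, with no shared exon bases. Of the 10 genes, 6 overlap another row of the tables, but only Tpr and Acsf2 among the overlapping genes stood above 1 RPKM.

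Ordered by level in heart, Matn2 stood first and Sox9 second, followed by Prg4, Sox5, Hapln1, Chad, Matn3, Matn1, Acan and Sox6. In bone marrow the order was Matn2, Prg4, Sox9, Matn3, Sox5, Sox6, Hapln1, Chad, Acan and Matn1. In heart, the Poisson intervals of Sox5 and Hapln1 overlapped, and from Chad downward each gene's interval overlapped that of the next. In bone marrow, each interval overlapped that of the next from Sox6 downward. The places of Prg4 are uncertain. Its heart level cannot be told apart from Tpr reads, and without those reads its bone marrow level of 6.80 RPKM would be below that of Sox9 at 7.12 RPKM and inside the Sox9 interval of 6.77 to 7.48 RPKM. Neighbours in each order other than these and Prg4 had intervals that did not overlap.

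**Figure D3:**
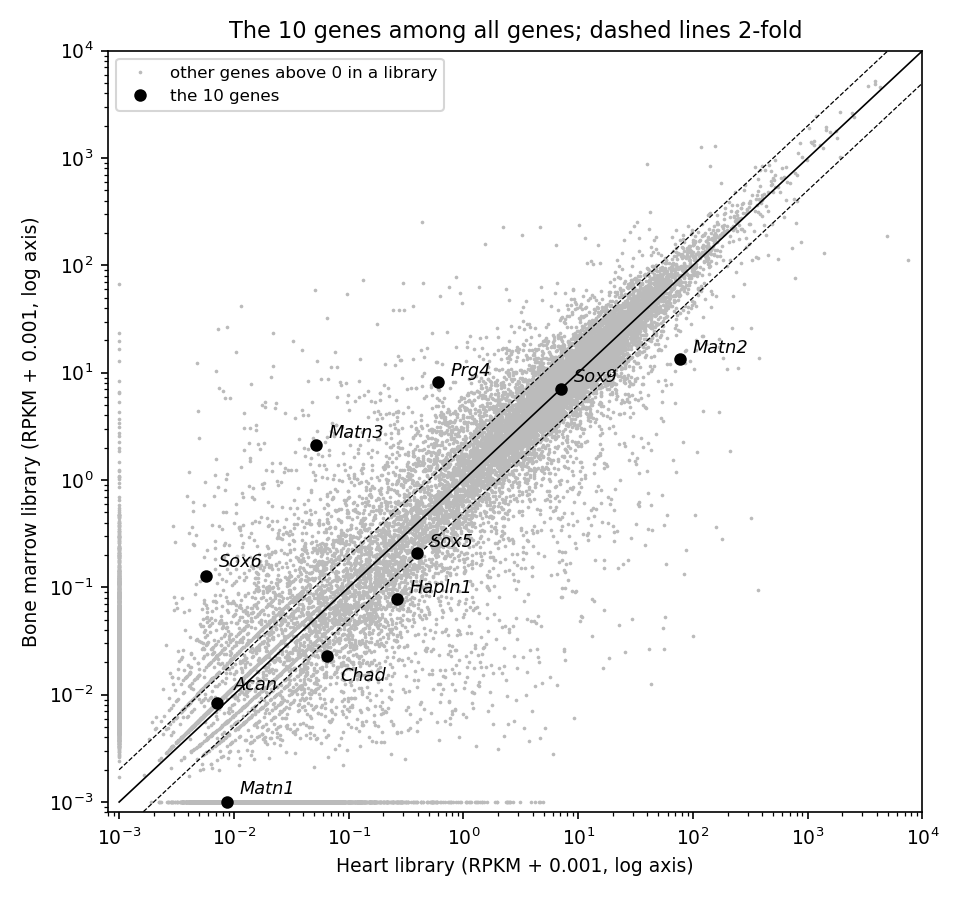
Each grey point is a gene above 0 in at least 1 library, with heart on the horizontal axis and bone marrow on the vertical axis, both as RPKM + 0.001 on log axes. Black points are the 10 genes, the solid line is equality and the dashed lines are 2-fold. Sox9 lies on the line, Matn2 lies below it on the heart side, and Prg4, Matn3 and Sox6 lie above it.

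Over the whole set, the 10 genes did not move one way. Of the 3 genes that reached 5 RPKM in a library, Matn2 was higher in heart, Prg4 was higher in bone marrow and Sox9 was neither. The counting interval of the ratio lay wholly beyond 2-fold toward heart for 1 gene, Matn2, and toward bone marrow for 3 genes, Sox6, Matn3 and Prg4. The same held for 7.94% of 20862 genes with recovered reads toward heart and 8.48% toward bone marrow. Intervals that only left out equality were found for 3 genes toward heart and 3 toward bone marrow, against 26.1% of the same 20862 genes toward heart and 33.3% toward bone marrow. Among genes with recovered reads under 5 RPKM in both libraries, intervals lay beyond 2-fold for 8.11% toward heart and 7.85% toward bone marrow. There 7 of the 10 fall, and of those 7 genes none lay beyond 2-fold toward heart and 2, Sox6 and Matn3, toward bone marrow. The median log2 ratio of the 10 genes was 0.01, against -0.01 over the 21632 genes above 0 in either library. Because 1 RPKM is added to both levels, genes below 1 RPKM in both libraries are held near 0. There 6 of the 10 genes fall, so this median cannot show whether the set shifted.

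Summed over the 10 genes, the level was 85.4 RPKM in heart and 31.3 RPKM in bone marrow. The sums differed by 54.1 RPKM, heart minus bone marrow, and Matn2 alone differed by 63.5 RPKM. Matn2 accounted for 90.0% of the sum in heart and 42.7% in bone marrow. Without it the sum was 8.52 RPKM in heart and 17.9 RPKM in bone marrow, so the direction of the sum rested on Matn2. Prg4 accounted for 0.704% of the sum in heart and 26.3% in bone marrow, and Sox9 for 8.35% in heart and 22.7% in bone marrow.

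**Figure D4:**
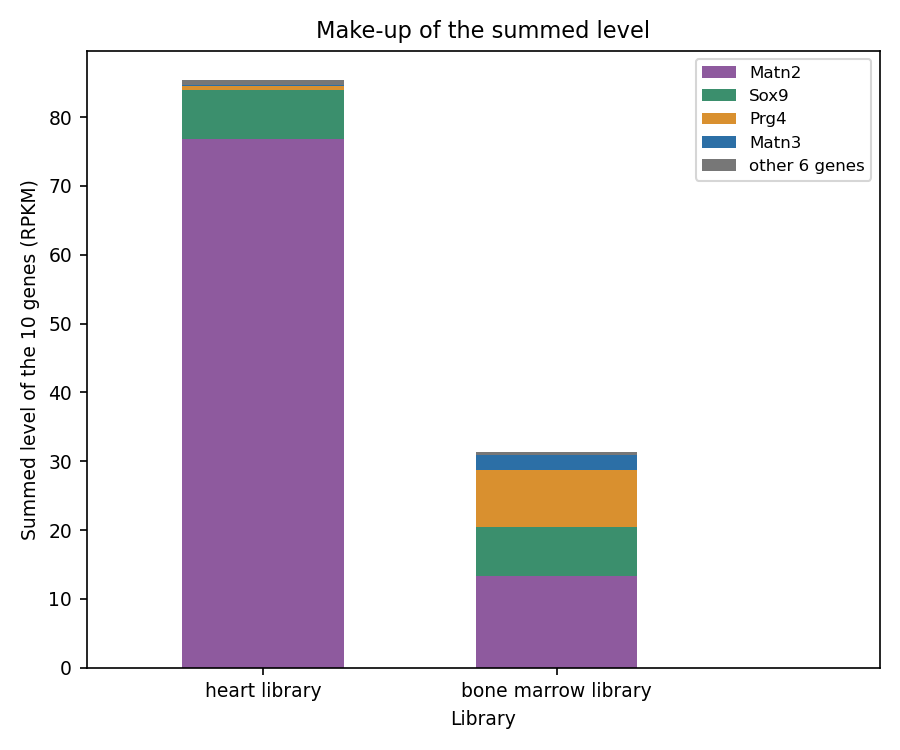
Summed RPKM of the 10 genes in the heart library (left) and the bone marrow library (right), split by gene. The heart bar of 85.4 RPKM is mostly Matn2, while the bone marrow bar of 31.3 RPKM is shared by Matn2, Prg4, Sox9 and Matn3.

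Genes that build and cut the aggrecan side chains and core are given for comparison with Acan itself. Of 20 genes of chondroitin sulphate synthesis and sulphation, 17 reached 1 RPKM in a library and 15 reached 5 RPKM. Over all 7659 genes that reached 5 RPKM, 7.56% met the 2-fold rule toward heart and 9.51% toward bone marrow. Of the 20, 3 met it toward heart, 1 toward bone marrow and 11 were neither, with a median log2 ratio of -0.09. Those toward heart were Chst11, which encodes a chondroitin 4-O-sulphotransferase, at 39.2 RPKM in heart and 4.71 RPKM in bone marrow, Xylt1, which encodes the enzyme that starts the chain, at 7.98 RPKM in heart and 2.42 RPKM in bone marrow, and Csgalnact1, which encodes an enzyme of early chain growth, at 12.7 RPKM in heart and 4.27 RPKM in bone marrow. Chst12, another sulphotransferase gene, stood at 8.32 RPKM in heart and 19.2 RPKM in bone marrow. Of 6 genes for proteases that cut aggrecan, 1 met the rule toward heart and none toward bone marrow. It was Adamts4, which encodes an aggrecanase, at 18.3 RPKM in heart and 4.56 RPKM in bone marrow. Adamts15, another aggrecanase gene, stayed under the floor at 3.98 RPKM in heart and 0.00609 RPKM in bone marrow, from at least 784 reads in heart and at least 1 read in bone marrow. Adamts8 had 14 reads in heart and 1 read in bone marrow.

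The cartilage collagen genes, which are not part of the 10, also differed between the cultures. Of 8 genes, 1 met the 2-fold rule toward heart, Col10a1, and 2 toward bone marrow, Col2a1 and Col11a1. Only 3 of the 8 reached 5 RPKM, and over all 7659 such genes the shares were 7.56% toward heart and 9.51% toward bone marrow. Col10a1, the collagen gene of hypertrophic chondrocytes, stood at 108 RPKM in heart and 1.82 RPKM in bone marrow, a ratio of 59.4 with an interval of 53.1 to 66.7. Col11a1, a minor fibril collagen gene of cartilage, stood at 33.6 RPKM in heart and 136 RPKM in bone marrow. Col2a1, the main cartilage collagen gene and a known SOX9 target, stood at 0.0565 RPKM in heart and 8.71 RPKM in bone marrow and had a ratio of 0.00649, with an interval of 0.00406 to 0.00985, while the Sox9 ratio was 1.00.

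**Figure D5:**
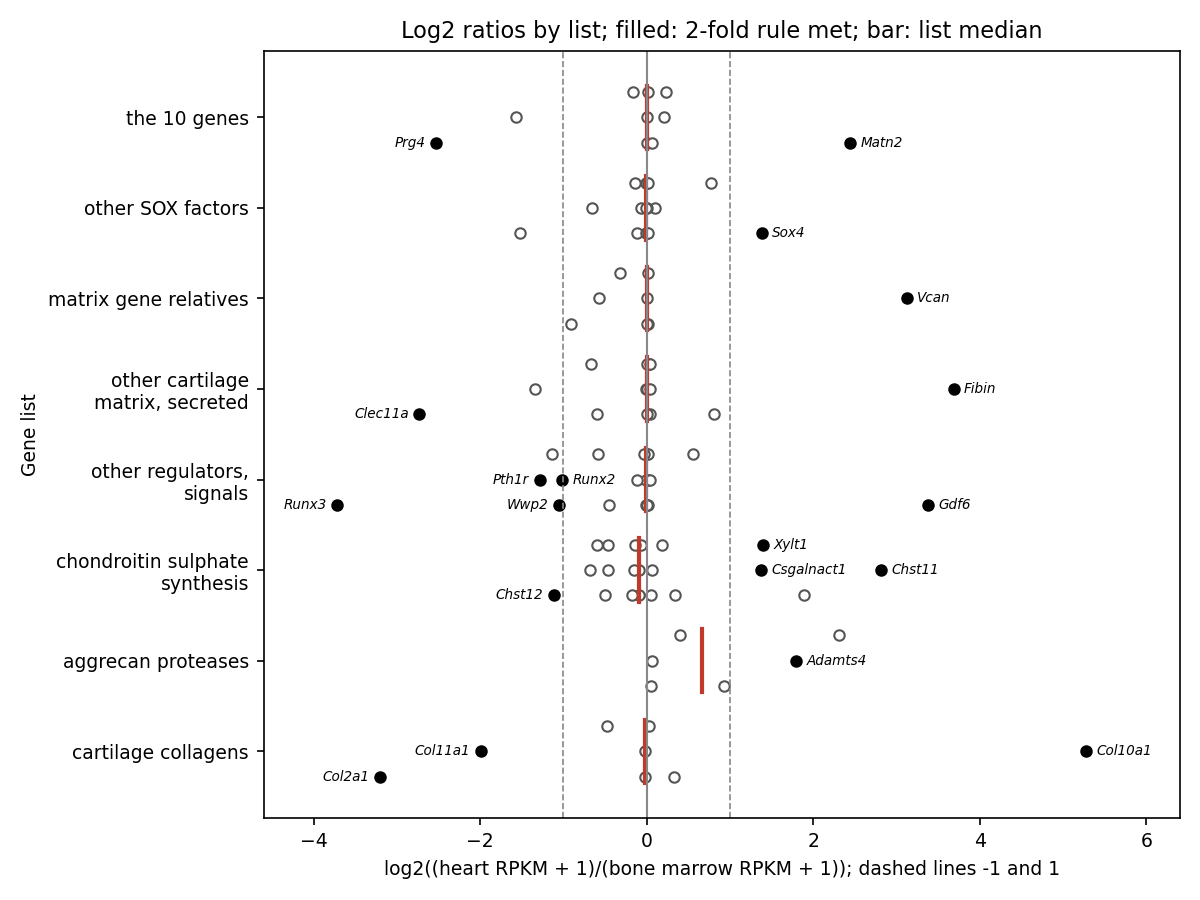
Log2((heart RPKM + 1)/(bone marrow RPKM + 1)) of each gene in 8 lists. Filled points with names met the 2-fold rule, open points did not, and red bars are list medians, which lie near 0 except for the proteases that cut aggrecan at 0.67. The 1 RPKM added holds genes below 1 RPKM in both libraries near 0, and with them the medians of lists made mostly of such genes. In the 10 genes, Matn2 lies at 2.44 and Prg4 at -2.53.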

How the data were processed

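Each tissue had 1 RNA library, made from 1 ug of total RNA of cultured cells per the labels' protocols. The authors deposited 1 RPKM value per gene row. For the aligner, counter and strand setting, the sources used here give nothing. The submitters' processing notes name mm8, but 45149 of 49585 rows have the coordinates of a GENCODE M21 gene on GRCm38, so coordinates were read on GRCm38.

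Reads were recovered from RPKM with M21 exon lengths. Of 14255 rows with a length and above 0 in both libraries, 12272 (86.1%) gave whole reads in both within 0.001 reads. Hapln1 and Matn2 had no M21 gene at their exact coordinates, and the M21 length of Sox6 gave no whole reads. For these 3 genes the lowest pair of whole reads over model lengths of 200 to 40000 bases was used, so their reads are lower limits and their intervals are at least as wide as those of the true reads. Ratio intervals are exact conditional Clopper-Pearson intervals at 95%, and intervals of a level are exact Poisson intervals. No molecular identifiers are recorded, so intervals and the limit of 3 reads for a count of 0 cover counting error only.

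The log2 ratio was log2((heart + 1)/(bone marrow + 1)) on RPKM. It understates differences of low genes. Background shares used the same rules over all genes. No count model was fitted. All 10 genes are described. From other lists the genes named are those that met the 2-fold rule (at most the 4 largest) and near relatives at 0. Sox10, Sox11, Sox13, Hapln4, Bcan, Matn4, Adamts1, Adamts5, Adamts8, Adamts15, Thy1, Eng, Pdgfra, Nt5e, Col1a1, Col1a2, Vim, Cd53, Lyz2, Ptprc, Emcn, Vwf, Kdr, Cdh1 and Krt14, and Comp, Cilp, Nog and Fgfr3 in the closing observations, were named after their values were seen. The genes and lists were chosen with earlier results of these data known. The calculations were tested on simulated data and used matplotlib 3.10.9, scipy 1.17.1, pandas 2.3.3, numpy 2.4.6 and Python 3.11.15. Alternatives were other pseudocounts, floors, thresholds and scalings.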

Additional observations from a re-analysis of the deposited data

How the results depend on the processing

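No paired analysis was possible because each tissue has 1 library. The count of genes of the set higher in bone marrow by the 2-fold rule was 1, and it was 2 with a floor of 1 RPKM or with no floor, where Matn3 entered, and 0 with a floor of 20 RPKM. Over all genes, the rule with no floor called 1052 of the 21632 genes above 0 in either library toward bone marrow. Shares over all genes at floors of 1 and 20 RPKM were not computed. By the 2-fold rule the count of genes of the set toward heart was 1 under every alternative run. Counting intervals beyond 1-fold in place of 2-fold gave 3 genes toward heart, Sox5, Hapln1 and Matn2, in place of 1, and 3 toward bone marrow under either rule. Over all genes with recovered reads the 1-fold rule gave 26.1% toward heart and 33.3% toward bone marrow. Scaling heart by the median ratio added 0.15 to log2 RPKM, the most of the scalings run. It changed neither the calls of Matn2 and Prg4 nor that of Sox9, whose log2 ratio ranged from 0.00 to 0.13 over the alternatives. Log2 ratios ranged from 2.16 to 2.58 for Matn2, from -3.57 to -1.24 for Prg4 and from -3.88 to -0.50 for Matn3. For Sox6, which was below 1 RPKM in both libraries, the log2 ratio was -0.17 and ranged from -1.12 to -0.03. Over all genes the rule gave 579 toward heart and 728 toward bone marrow. With the median ratio scaling it gave 704 toward heart and 583 toward bone marrow, and with a floor of 1 RPKM or none 883 toward heart and 1052 toward bone marrow. It gave 263 toward heart and 315 toward bone marrow with a floor of 20 RPKM, 383 toward heart and 424 toward bone marrow with a pseudocount of 5 RPKM, and 257 toward heart and 229 toward bone marrow at 4-fold. Depth limits Acan, Matn1 and Chad, each with 7 reads or fewer per library.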

Other observations

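Other listed cartilage matrix and secreted genes outside the set also went both ways. Of 14 such non-collagen genes, 11 were below 1 RPKM in both libraries. The 2-fold rule was met by 1 toward heart and 1 toward bone marrow, both of them secreted factors not specific to cartilage by the descriptions given here. Only 2 of the 14 reached 5 RPKM, and over all 7659 such genes the shares were 7.56% toward heart and 9.51% toward bone marrow. Fibin, which encodes a secreted factor named for zebrafish fin buds, stood at 32.5 RPKM in heart and 1.61 RPKM in bone marrow. Clec11a, which encodes a secreted growth factor of bone and blood cells, stood at 2.74 RPKM in heart and 23.9 RPKM in bone marrow. The cartilage matrix gene Comp stood at 0.0571 RPKM in heart and 1.67 RPKM in bone marrow, while Cilp stood at 0.758 RPKM in heart, from 209 reads, and 0.00436 RPKM in bone marrow, from 1 read.

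Of 19 regulators and signals of chondrocytes outside the SOX family, 11 were below 1 RPKM in both libraries, 1 met the rule toward heart, 4 toward bone marrow and 1 was neither. Only 6 of the 19 reached 5 RPKM, and over all 7659 such genes the shares were 7.56% toward heart and 9.51% toward bone marrow. Gdf6, which encodes a BMP family ligand of joints, stood at 12.2 RPKM in heart and 0.278 RPKM in bone marrow, a ratio of 44.0 with a counting interval of 33.5 to 58.9. Runx3, a transcription factor gene of chondrocyte maturation, stood at 0.0524 RPKM in heart and 12.8 RPKM in bone marrow, which is 245-fold lower in heart. Pth1r, the receptor gene for parathyroid hormone and its relative, stood at 6.62 RPKM in heart and 17.6 RPKM in bone marrow. Wwp2, a ubiquitin ligase gene active in cartilage, stood at 8.31 RPKM in heart and 18.3 RPKM in bone marrow. The BMP inhibitor gene Nog stood at 0.0182 RPKM in heart and 1.25 RPKM in bone marrow, and the growth plate receptor gene Fgfr3 at 0.0969 RPKM in heart and 0.502 RPKM in bone marrow. None of these differences has a replicate check.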
